A study of Mus musculus with 6 samples.

Results

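The genes of Nodal signalling were examined in undifferentiated mouse embryonic stem cells (mESCs) with and without huntingtin. They are 10 genes chosen by symbol: the ligand Nodal, its inhibitors Lefty1 and Lefty2, the co-receptor Tdgf1, the receptors Acvr1b, Acvr2a and Acvr2b, and the intracellular Smad2, Smad3 and Smad7. All 10 were found among the 23412 rows of the expression table, and all 10 were among the 14276 genes with a mean normalized count of at least 5 that were tested. RNA-seq was available for 6 libraries, 3 of R1 mESCs and 3 of HN mESCs. R1 is the parental wild type line (strain 129Sv), and HN is its Htt-null (Htt-/-) counterpart, in which the promoter and exon 1 of Htt were deleted. Each genotype was represented by 1 line, so the genotype cannot be told apart from other differences between the lines. Both lines were grown without feeder cells on gelatin in medium with fetal bovine serum, LIF and 3 inhibitors, SU5402 (FGF and VEGF receptors), PD184352 (MEK) and CHIR99021 (GSK3), and no group lacked these agents. Both lines were collected on the same 3 dates, so that R1 and HN libraries with the same replicate number form a same-date pair.

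Nodal is a secreted ligand of the TGF-beta family that acts in the early embryo in mesendoderm formation and left-right patterning, and mESCs produce it themselves. It binds a complex of activin type II receptors (Acvr2a, Acvr2b) and the type I receptor Acvr1b, for which the membrane-anchored co-receptor Tdgf1 (Cripto) is needed. The activated receptor phosphorylates Smad2 and Smad3, which enter the nucleus with Smad4 and bind DNA together with partners such as Foxh1. Nodal, Lefty1, Lefty2 and Smad7 are themselves targets of the pathway: the Lefty proteins block Nodal and its co-receptor outside the cell, and Smad7 blocks the receptors from inside.

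Lefty1 and Lefty2 are neighbouring genes of closely similar sequence, and their sequences are shown because reads from one can be hard to tell from the other. In the GRCm38 genome build (GENCODE M21 annotation), Lefty2 lies on the plus strand at chr1:180893108-180899103 and Lefty1 on the plus strand at chr1:180935022-180938400. Their coding sequences are both 1104 bases long and are identical at 1014 positions (91.8%). The 90 coding bases in which they differ most, bases 35 to 124 of the coding sequence, lie in exon 1 of both genes, at chr1:180935144-180935233 for Lefty1 and chr1:180893218-180893307 for Lefty2. The 27 bases that differ are in capitals.
Lefty1: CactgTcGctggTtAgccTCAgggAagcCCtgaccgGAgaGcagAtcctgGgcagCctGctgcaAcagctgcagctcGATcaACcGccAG
Lefty2: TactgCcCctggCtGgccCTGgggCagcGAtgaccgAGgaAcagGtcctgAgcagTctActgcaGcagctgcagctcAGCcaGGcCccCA
Of all 50-base stretches of the Lefty1 transcripts, 17.9% also occurred in Lefty2, and 11.99% of those of Lefty2 occurred in Lefty1 or Gm44212. The reads were 50 bases long at each end, so reads from such stretches could be dropped or placed on either gene. Counts of Lefty1 are therefore uncertain. Lefty2 was at a mean of 183 normalized counts over the 6 libraries and Lefty1 at 23.3. The part of the Lefty1 count that could come from Lefty2 is thus not bounded by 17.9%, and it was not tested. Smaller shares were found for Tdgf1 (8.86%, with the pseudogene Tdgf1-ps1) and Acvr2a (6.98%, with the overlapping gene Orc4), and no such stretch was found in the other 6 genes.

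A promoter sequence in the RefSeq table (GRCm38.p6, 250 bases before to 50 bases after the start) was matched for 6 of the 10 genes: Nodal, Tdgf1, Acvr1b, Acvr2a, Acvr2b and Smad3. Lefty1, Lefty2, Smad2 and Smad7 were not matched. These were searched on both strands for AATNNACA, a motif bound by Foxh1, and CAGAC, the core bound by Smads. AATNNACA was found only in Tdgf1, at 2 places, against 12.2% of all 32851 promoters in the table. CAGAC was found in Tdgf1, Acvr2a and Acvr2b, once in each, against 49.6% of all promoters. The 2 motifs can overlap by the letters CA, which they did not in Tdgf1. The stretch of the Tdgf1 promoter that holds them runs from 150 to 51 bases before the start, on the minus strand at chr9:110946209-110946308, and is shown with the matches in capitals, at 127, 113 and 101 bases before the start.
Tdgf1: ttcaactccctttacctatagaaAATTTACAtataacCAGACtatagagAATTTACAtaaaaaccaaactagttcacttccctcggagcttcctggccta
A match to these letters says nothing of whether a factor was bound in these cells.

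The libraries held 1640391 to 3866717 reads on genes, and the 10 genes took 2868 to 5759 of them. Htt, the deleted gene, was at 230, 257 and 199 normalized counts in the R1 libraries and at 18.3, 58.1 and 54.2 in the HN libraries, with no overlap. Reads were counted over all exons of Htt, most of which lie outside the deletion. The summed level of 7 embryonic stem cell markers (Pou5f1, Sox2, Nanog, Zfp42, Esrrb, Klf4, Dppa5a) was 9338 to 13469 normalized counts in R1 and 10340 to 13653 in HN, and all 7 were detected in every library. Within this list 3 markers separated the lines without overlap: Zfp42 was at 1886 to 2381 in R1 and at 1061 to 1295 in HN, while Nanog (1864 to 2440 in R1 and 2482 to 2832 in HN) and Klf4 (241 to 340 in R1 and 366 to 439 in HN) were higher in HN, where 5.54% of all tested genes separated with HN lower and 5.23% with HN higher. Their part in the line differences was not tested. The libraries of the third collection date stood apart from the others. More genes had a read there (20542 and 20675, against 18133 to 19083), and the stem cell marker sum was lower (9338 and 10340, against 12916 to 13653). The sum of 6 primitive endoderm markers was higher (136 and 167, against 35.5 to 65.7) for all 6 genes in both lines, none of them at 0 in any library, and that of 7 fibroblast markers was higher (72.6 and 105, against 12.1 to 57.5) for 5 of them, with Postn and Acta2 at 0 in 1 library of the second date each. In RNA from bulk cultures, more cells of another type and more RNA of that type per cell cannot be told apart.

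Levels of different genes were compared per kilobase of exon. Tdgf1 was the most abundant of the 10 genes, at a mean of 1200 normalized counts per kb over the 6 libraries, and its lowest library (955) was above every value of the other genes. The ligand Nodal followed at 107 per kb, then Smad7 at 78.7, Lefty2 at 70.0 and Smad2 at 34.9, and each neighbour in this order overlapped the next in its range over libraries. Acvr1b (22.7 per kb) was below Smad2 and above Acvr2a without overlap. Acvr2a and Lefty1 were level at 13.3 per kb each, with a narrow range for Acvr2a (11.8 to 14.6) and a wide one for Lefty1 (4.03 to 26.6). Smad3 (9.16 per kb) and Acvr2b (6.24 per kb) were lowest and overlapped each other. Among paralogs, Smad2 was above Smad3, Acvr2a above Acvr2b and Lefty2 above Lefty1 in the means, and in the first 2 of these pairs the ranges over the libraries did not overlap.

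**Figure D1:**
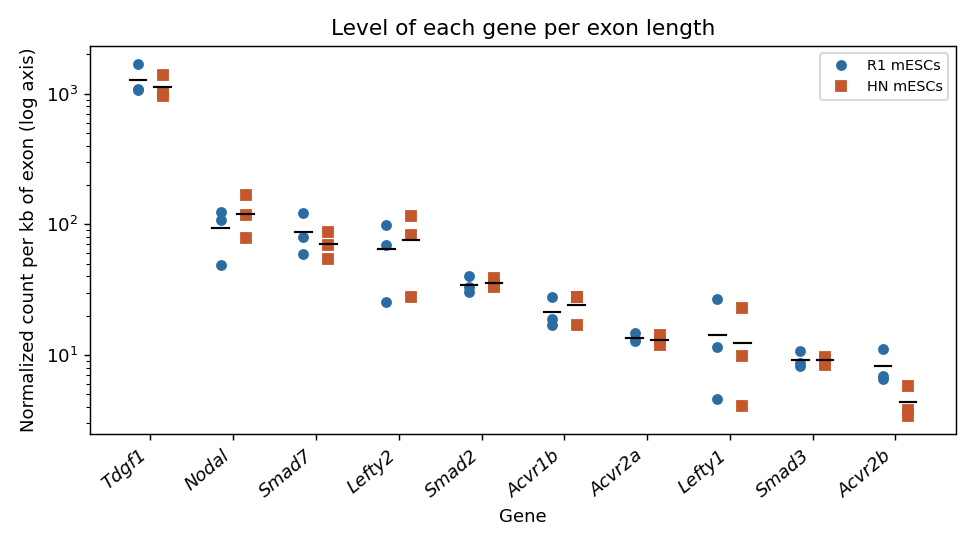
Level of each of the 10 genes in normalized counts per kb of exon (log axis), with 1 point per library (blue circles R1, orange squares HN mESCs) and a bar at the mean of each line. Tdgf1 lies above 955 in every library, and Lefty1 and Lefty2 are spread most widely.

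Nodal itself did not pass the test between the lines without regard to date. With the date taken into account it passed as higher in HN in limma, but not in every fit. It was at 259, 226 and 102 normalized counts in R1 on the first, the second and the third date (196 ± 82.3, mean ± SD, n = 3), and at 246, 349 and 165 in HN (253 ± 92.3, n = 3). The lines overlapped, and HN was higher on the second and the third date but not on the first. The log2 difference (HN minus R1, on values plus a pseudocount of 1) was 0.41 ± 0.35 (SE), with an adjusted p of 1 in limma, and ran from 0.0006 (without the R1 library of the third date) to 0.69 (without the HN library of that date) when 1 library was left out. With the collection date as a block, its 95% interval was 0.14 to 0.68 and the adjusted p in limma was 0.0413. This call was lost when a library of the second or the third date was left out (adjusted p in limma 0.179 to 0.530) and with DESeq2 and the same block (0.278), and over all alternatives with the block the adjusted p ran from 0.000248 to 0.530.

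The Nodal inhibitors Lefty1 and Lefty2 hardly differed between the lines within a date, while of the 10 genes these 2 varied most between dates. Lefty2 was at 259.7, 65.8 and 182 normalized counts in R1 on the first, the second and the third date, and at 302, 72.3 and 214 in HN. On each date the value in HN was close to that in R1, and the same-date log2 differences were 0.22, 0.13 and 0.24. Lefty1 was at 46.8, 8.14 and 20.2 normalized counts in R1 and at 40.2, 7.09 and 17.3 in HN. Here too the lines overlapped and were close on each date, with same-date log2 differences of -0.22, -0.18 and -0.21. Neither gene passed the test between the lines. The log2 difference was 0.19 for Lefty2 (95% interval -0.97 to 1.36, and -0.06 to 0.45 with the date as a block) and -0.20 for Lefty1 (-1.66 to 1.25, and -0.83 to 0.42 with the block). The highest library was 5.76 times the lowest for Lefty1 in R1 and 5.66 times in HN, and 3.95 and 4.17 times for Lefty2. In both genes and both lines, the first date was highest, the third intermediate and the second lowest. Reads from stretches shared by Lefty1 and Lefty2 could be placed on either gene, so their orders need not be independent. Lefty1 rests on few reads (44, 11 and 15 in R1 and 33, 10 and 16 in HN), so counting error alone is large for it.

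The co-receptor Tdgf1 was at 4446, 2827 and 2791 normalized counts in R1 (3355 ± 945, n = 3) and at 3651, 2655 and 2505 in HN (2937 ± 623, n = 3). It was lower in HN on all 3 dates, and the lines overlapped. The log2 difference of -0.18 did not pass in limma without the block (adjusted p = 1) or with it (0.215, 95% interval -0.35 to -0.01).

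Among the receptors, the type II receptor Acvr2b was the only gene of the 10 whose lines did not overlap. It was at 25.5, 43.6 and 27.0 normalized counts in R1 (32.1 ± 10.1, n = 3) and at 13.4, 14.9 and 22.7 in HN (17.0 ± 5.03, n = 3), from 11 to 59 reads per library. All HN libraries were below all R1 libraries, by the most on the second date and the least on the third. Such a separation with HN lower was found in 5.54% of all tested genes, and an exact permutation test of 3 against 3 libraries cannot give a two-sided p under 0.1. The log2 difference was -0.87 ± 0.37 (SE), with an adjusted p of 0.788 in limma. With the block the 95% interval was -1.47 to -0.27 and the adjusted p in limma 0.0552, just outside the threshold of 0.05. It passed in edgeR with the block (adjusted p = 0.0223) and, in limma with the block, when the third date was left out (log2 difference -1.19, adjusted p = 0.00724) or values were centred on the median (0.0411), and over the alternatives with the block the adjusted p ran from 0.00724 to 0.670. DESeq2 with the block gave it no adjusted p.

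The type I receptor Acvr1b was at 123, 83.6 and 75.5 normalized counts in R1 and at 123, 123 and 74.7 in HN. The lines were level on the first and the third date, and only the second date separated them. Acvr2a, the other type II receptor, was the least variable of the receptors, at 83.0, 75.5 and 72.8 normalized counts in R1 and at 74.2, 80.8 and 67.1 in HN. Neither gene passed in limma between the lines, without the block (adjusted p = 1 for both) or with it (0.579 for Acvr1b and 0.898 for Acvr2a). The 95% intervals of the log2 difference with the block were -0.14 to 0.49 for Acvr1b and -0.40 to 0.28 for Acvr2a.

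The receptor-activated Smads were close to level between the lines. Smad2 was at 293, 351 and 266 normalized counts in R1 (303 ± 43.9, n = 3) and at 303, 338 and 289 in HN (310.1 ± 25.2, n = 3). Smad3 was at 45.8, 48.1 and 59.3 in R1 and at 51.1, 53.9 and 46.6 in HN. The lines overlapped fully for both genes, and neither line was higher on all 3 dates. The 95% intervals of the log2 difference with the block were -0.18 to 0.26 for Smad2 and -0.41 to 0.40 for Smad3. Smad7, the inhibitory Smad, was at 549, 364 and 269.6 normalized counts in R1 (394 ± 142, n = 3) and at 392, 315 and 246 in HN (317 ± 73.0, n = 3). HN was lower than R1 on all 3 dates, by the most on the first, and the lines overlapped. Its log2 difference of -0.28 did not pass in limma without the block (adjusted p = 1) or with it (0.106), and ran from -0.52 (without the R1 library of the third date) to -0.0065 (without that of the first) when 1 library was left out. It passed with the block when the third date was left out (adjusted p in limma 0.0293).

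**Figure D2:**
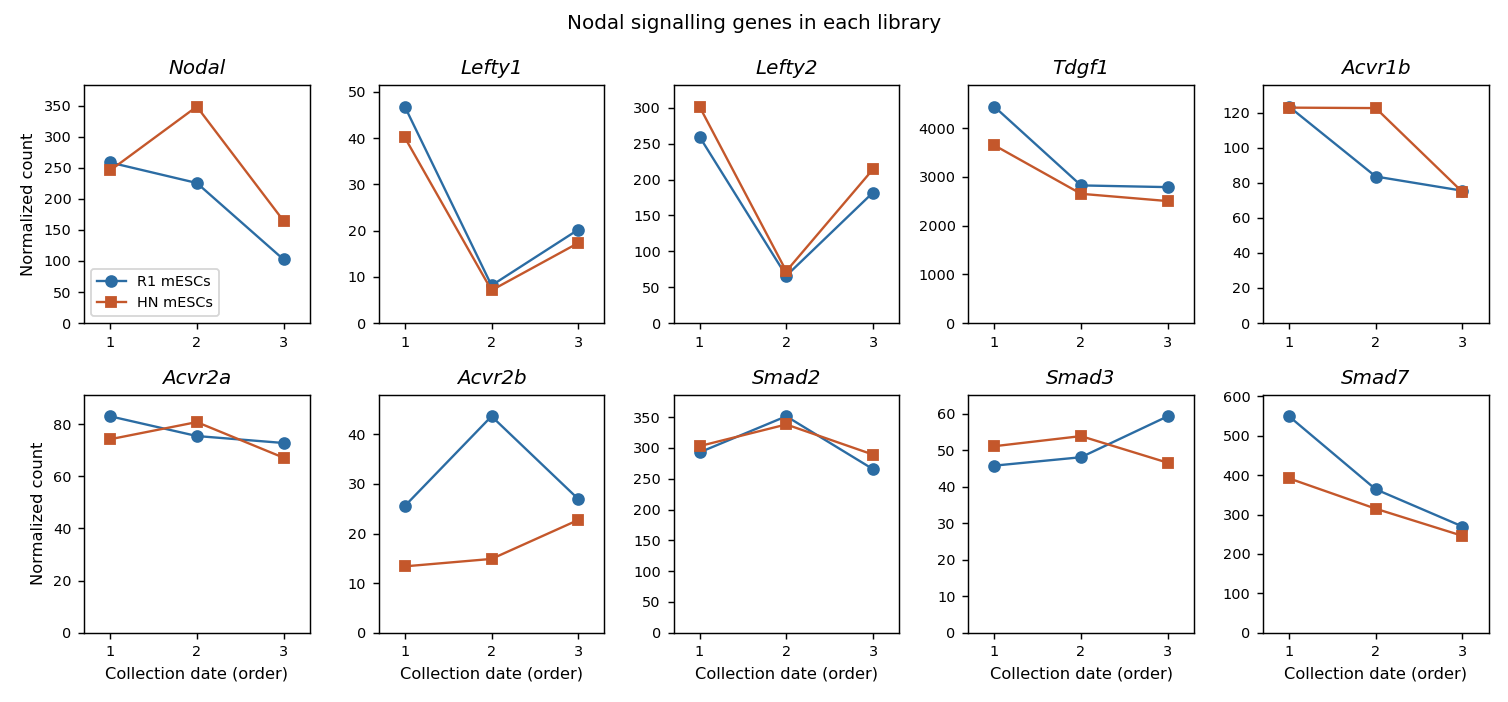
Normalized count of each gene in each library (vertical axes start at 0) against the order of the collection dates, with blue circles for R1 and orange squares for HN mESCs. The lines of Lefty1 and Lefty2 lie close together with their lowest values on the second date, the Nodal lines part on the second and the third date, and the Acvr2b lines do not cross.

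Over the 10 genes, 0 passed between the lines without the block at an adjusted p under 0.05 in limma, where 0.245% of all tested genes passed. edgeR and DESeq2 also gave 0 (0.238% and 0.785% of all tested genes passed). At an unadjusted p under 0.05 in limma was 1 of the 10 genes (Acvr2b), and 843 of all 14276 tested genes. With the date as a block, 1 of the 10 passed (Nodal, higher), where 9.48% of all tested genes passed and 5.46% were higher, so the share of these genes was near the background. The count was 2 with edgeR and the block (Nodal and Acvr2b, against 11.2% of all tested genes), 2 in limma with the block when the third date was left out (Acvr2b and Smad7, against 11.8%) and 2 with median centring and the block (Nodal and Acvr2b, against 11%). The median log2 difference of the 10 genes was -0.03, against -0.01 over all tested genes. Of the 10 genes 4 were higher and 6 lower in HN, but with median centring 5 and 5, since Smad3 changed sign.

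**Figure D3:**
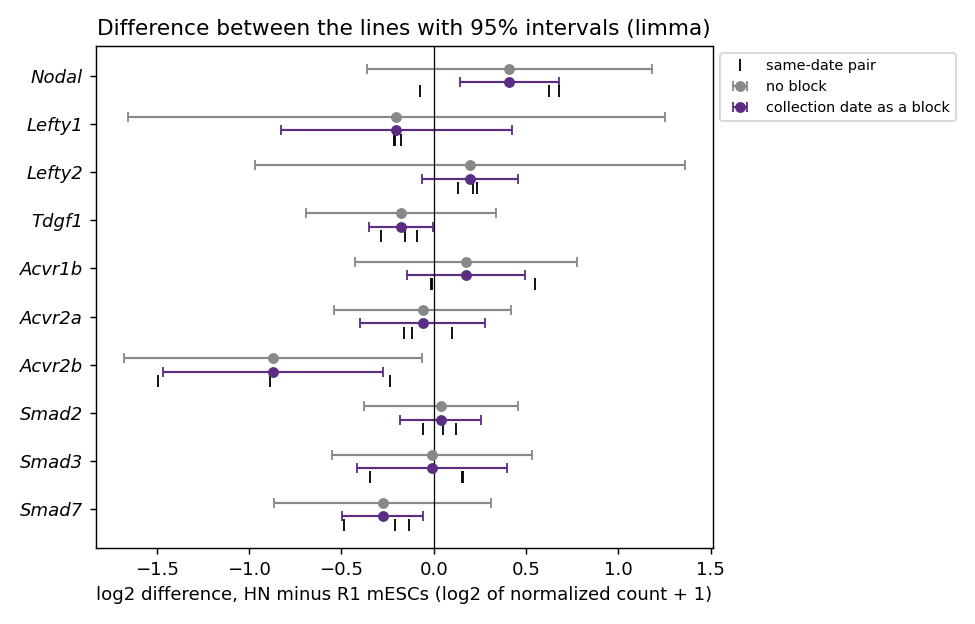
Log2 difference between HN and R1 mESCs for each gene, as a point with its 95% interval without a block (grey) and with the collection date as a block (purple), and as ticks for the 3 same-date pairs. With the block, the intervals of Nodal, Tdgf1, Acvr2b and Smad7 leave out 0. In that limma fit 3081 of all 14276 tested genes were at an unadjusted p under 0.05. After adjustment over all tested genes only Nodal passes of the 10.

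More of these genes passed between dates than between lines, as was also the case over all tested genes. On the third date, compared with the first and second, 5 of the 10 genes passed, where 40.9% of all tested genes passed. The share of these genes was thus near the background. Nodal was lower by a log2 difference of -1.03 (adjusted p = 1.48e-06), Smad7 by -0.62 (9.91e-05), Acvr1b by -0.57 (0.00737) and Tdgf1 by -0.33 (0.0044), while Lefty2 was higher by 0.50 (0.00414), all in limma with the line as a covariate. Over all tested genes the median shift of the third date was -0.07, and 2535 genes were higher and 3307 lower. Among the 7659 genes with a mean of at least 50, it was -0.26, with 308 genes higher and 3006 lower. For the 8 of the 10 genes in that set the median was -0.27. With median centring the median shift over all tested genes was 0.06, and 3225 genes were higher and 1977 lower. In that fit 4 of the 10 genes passed, with Tdgf1 lost (adjusted p in limma 0.118). With quantile normalization 3 passed (Nodal, Lefty2 and Smad7), where 1736 of all tested genes were higher and 1877 lower. With DESeq2 4 passed, with Acvr1b lost (adjusted p = 0.167), where 1005 of all tested genes were higher and 1128 lower. Without the variance trend in limma 0 passed, where 1130 of all tested genes were higher and 410 lower. The markers of other cell types that were higher on the third date moved with these values, and their part in them was not tested.

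The drop of Nodal on the third date and the ups and downs of Lefty1 and Lefty2 followed different orders of dates. A limma F-test of any difference among the 3 dates, added after the values were seen, passed for 6 of the 10 genes (Nodal, Lefty1, Lefty2, Tdgf1, Acvr1b and Smad7), where 46% of all tested genes passed. This share too was not far from the background. For Lefty2 the first date exceeded the second by a log2 difference of 2.01 ± 0.16 (SE) and the third by 0.50, and for Lefty1 by 2.37 ± 0.38 and 1.17, each past the threshold. Between the first and the second date, 5.11% of all tested genes passed with the first higher. In the F-test the adjusted p in limma was 5.96e-11 for Lefty2 and 4.22e-05 for Lefty1. Both passed in each of the 6 fits that left out 1 library and when the third date was left out. Without the variance trend the adjusted p in limma was 0.0546 for both, and 0 of all 14276 tested genes passed. Nodal differed by only -0.15 between the first and second date (adjusted p in limma 0.588), where 13.8% of all tested genes passed, and by 1.11 between the second and the third. Tdgf1 was higher on the first date than on the second (0.56) and the third (0.61), and the 0.05 between the second and the third did not pass. Smad7 fell from date to date, by 0.45 and then 0.39 on the log2 scale. The second date, on which Lefty1 and Lefty2 were lowest, had the most reads on genes (3604420 in R1 and 3866717 in HN, against 1640391 to 2426485 on the other dates). The part of depth in these values was not tested. A term for a line difference particular to the third date passed for 0 of all 14276 tested genes in limma, and for 0 of the 10 genes at an unadjusted p under 0.05.

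**Figure D4:**
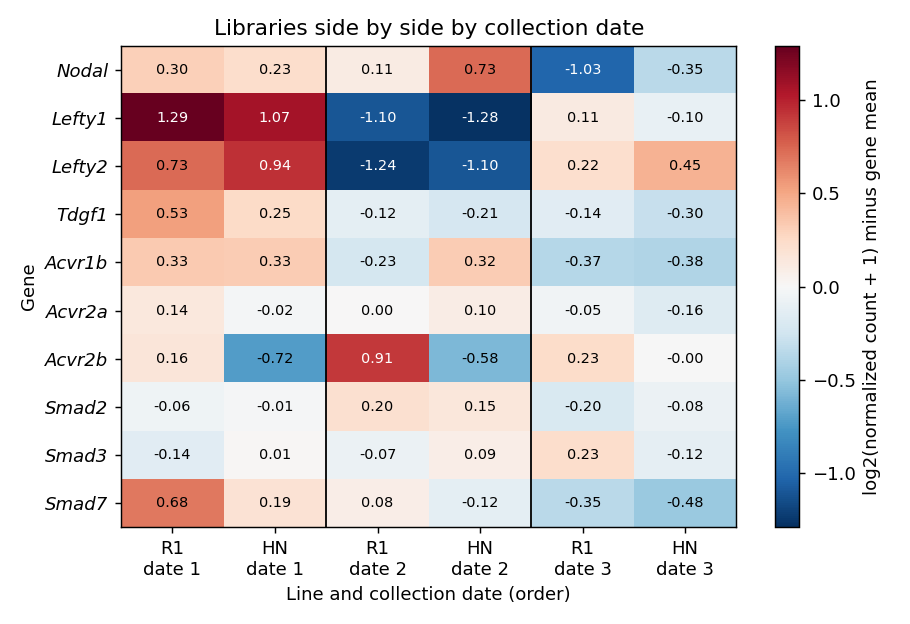
Values of each gene in the 6 libraries, as log2(normalized count + 1) minus the mean of the gene, with R1 and HN mESCs side by side on each collection date. Lefty1 and Lefty2 run from 0.73 to 1.29 on the first date and from -1.28 to -1.10 on the second in both lines, and Nodal is lowest on the third date.

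The order of the dates in Lefty1 and Lefty2 was then counted over all tested genes. This order was taken from the values of Lefty1 and Lefty2, and any single order shared by both lines is found in few genes. The counts therefore describe these genes and test nothing. Some same order of the 3 dates in both lines was found in 42.3% of all tested genes and in 6 of the 10. The first date was highest and the second lowest in both lines in 451 of the 14276 tested genes (3.16%), and with a range over dates above 1 log2 unit in both lines in 73 (0.511%). Of the 10 genes only Lefty1 and Lefty2 were among these. Nodal, Tdgf1, Acvr1b, Acvr2a, Smad2 and Smad7 were lowest on the third date in both lines, as were 29.5% of all tested genes. By the mean absolute difference of centred log2 values over the 6 libraries, the genes most like Lefty2 among 7642 with a mean of at least 50 were Acss1 (0.15), a mitochondrial acetyl-CoA synthetase, Fam63b (0.25), Ephx1 (0.29), an epoxide hydrolase, Insig1 (0.30), a regulator of sterol synthesis, and Fabp3 (0.32), a fatty acid binding protein. Acss1 was at 90.5, 29.6 and 63.3 normalized counts in R1 and at 103, 18.4 and 71.5 in HN. Tdgf1 ranked 603 in this likeness, Smad7 1700 and Nodal 6848.

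The rest of the pathway was read from a list of 39 other genes, of which 34 passed the filter on low values. The ligand gene Gdf1 was at 0 in all libraries, and Cer1, a secreted Nodal antagonist, was at 6.74 normalized counts in R1 and 2.43 in HN in 1 library each and at 0 in the others. Inha, Inhba and Cfc1 were also under the filter. Without the block 0 of the 34 passed between the lines in limma (0 in edgeR and DESeq2). In limma 2 were at an unadjusted p under 0.05, as were 843 of all 14276 tested genes. With the date as a block 5 were higher in HN and 0 lower, where 5.46% of all tested genes were higher and 4.02% lower. The median log2 difference of the 34 was 0.13.

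The 5 genes were the ligand Gdf3, the antagonists Fst and Nomo1, the Smad4 deubiquitinase Usp9x and the target Eomes. Gdf3, a ligand related to Nodal that uses the same co-receptor, was at 216, 336 and 169.8 normalized counts in R1 and at 309, 499 and 284 in HN. Eomes, a T-box factor of mesendoderm, was at 63.9, 106.5 and 27.0 in R1 and at 142, 179 and 55.2 in HN. Both overlapped between the lines but were higher in HN on all 3 dates, by log2 differences of 0.61 for Gdf3 (adjusted p in limma with the block 0.000205) and 0.96 for Eomes (8.57e-05). Without the block and with 1 library left out, these ran from 0.36 (without the HN library of the second date) to 0.88 (without the R1 library of that date) for Gdf3 and from 0.44 to 1.47 (without the R1 and the HN library of the third date) for Eomes. With the block they ran from 0.54 to 0.65 and from 0.87 to 1.08, and both passed in every such fit. Fst, which encodes the activin-binding follistatin, was at 4.26, 30.3 and 13.5 normalized counts in R1 and at 75.4, 63.8 and 37.9 in HN. Here all HN libraries were above all R1 libraries, by a log2 difference of 2.11 (adjusted p in limma with the block 3.09e-05), and of 1.24 when either library of the first date was left out. In DESeq2 with the block Fst did not pass (adjusted p = 0.14). Nomo1, part of a membrane complex that antagonizes Nodal, was at 131, 133 and 116 in R1 and at 156, 276 and 168 in HN, again without overlap, with a log2 difference of 0.61 (adjusted p in limma with the block 0.00313). Its call was lost without either library of the second date (0.346 and 0.380) and in DESeq2 with the block (0.0526). Of the 34 genes, Fst, Nomo1 and Furin had all HN libraries above all R1 libraries, as had 5.23% of all tested genes. Usp9x was higher in HN by 0.28 (0.0324 in limma with the block), and that call was lost without any 1 library of the first or second date (0.143 to 0.296).

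**Figure D5:**
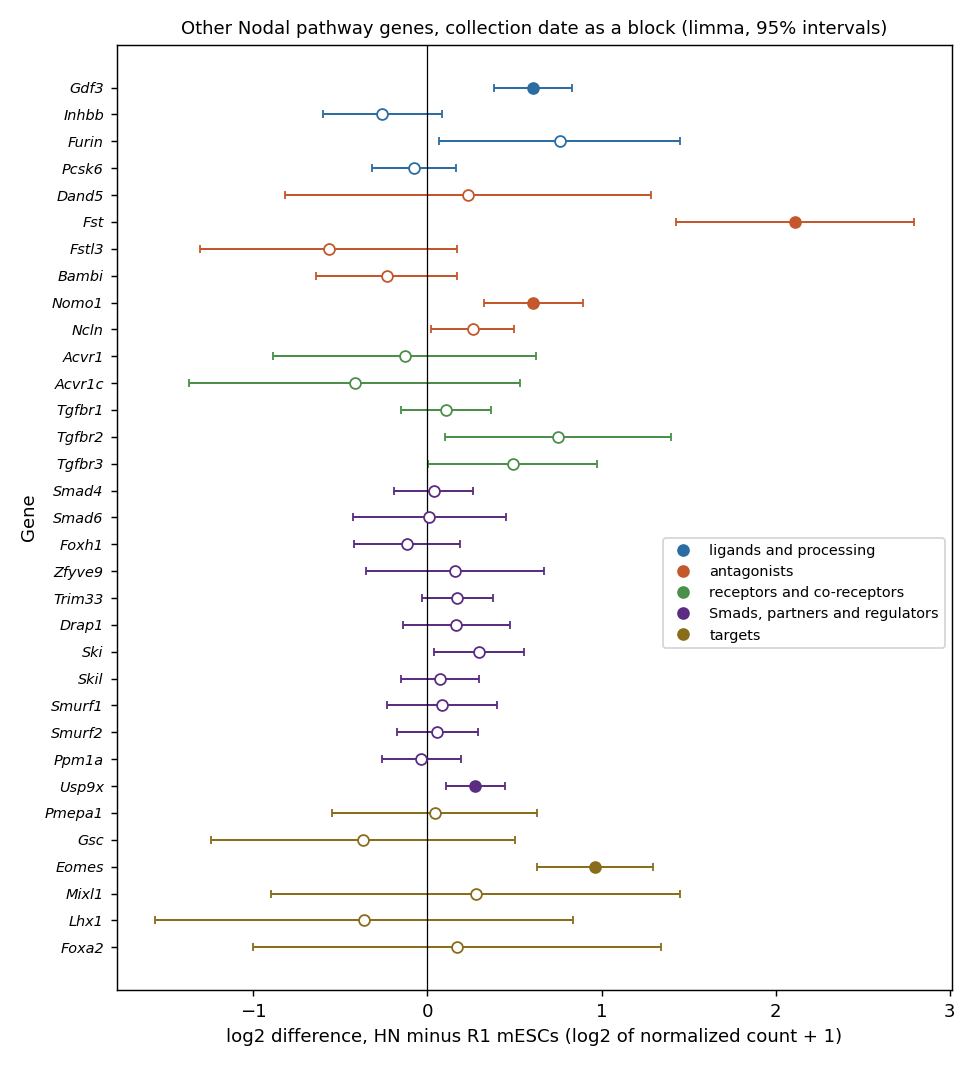
Log2 difference between HN and R1 mESCs, with 95% intervals, for other pathway genes tested in limma with the collection date as a block, coloured by role, with filled points for those with an adjusted p under 0.05. The 5 filled points (Gdf3, Fst, Nomo1, Usp9x, Eomes) lie to the right of 0.

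Foxh1, Smad4 and Inhbb did not pass between the lines with or without the block. Foxh1, a partner with which Smad2 and Smad3 bind DNA, was at 118, 178 and 56.6 normalized counts in R1 and at 102, 150.3 and 60.7 in HN. Smad4, the shared partner of these Smads, was at 239.5, 312 and 226 in R1 and at 262, 317 and 219.9 in HN. The activin subunit Inhbb was at 86.2, 112 and 91.7 in R1 and at 91.3, 104 and 54.2 in HN. All 3 overlapped between the lines, and their log2 differences with 95% intervals in the fit with the block were -0.12 (-0.42 to 0.19) for Foxh1, 0.04 (-0.19 to 0.26) for Smad4 and -0.26 (-0.60 to 0.08) for Inhbb.

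By collection date, 10 of the 34 other pathway genes were higher on the third date and 9 were lower, where 17.8% of all tested genes were higher and 23.2% lower. With only genes of a mean of at least 50 tested, 1 of the 18 left was higher and 9 were lower. Over all 7659 such genes, 308 were higher and 3006 lower. The counts over the 34 genes depended on single libraries and on the method. Without the R1 library of the third date 1 was higher and 8 were lower, without the HN library of the second date 5 and 6, with DESeq2 2 and 6, with quantile normalization 5 and 7, and without the variance trend in limma 4 and 3. Those lower were Eomes (log2 difference -1.55), Foxh1 (-1.18), Ncln (-0.84), Ski (-0.70), Pcsk6 (-0.59), Gdf3 (-0.57), Inhbb (-0.47), Smad4 (-0.33) and Usp9x (-0.27), which thus included a ligand, the protease Pcsk6 that processes Nodal, and the Smad partner Foxh1. Those higher included Lhx1 (2.99), Gsc (2.44), Acvr1c (1.73), Mixl1 (1.66), Foxa2 (1.52), Tgfbr3 (0.93), Tgfbr2 (0.87), Smad6 (0.58) and Smurf2 (0.33). Lhx1, Gsc, Mixl1 and Foxa2 are transcription factors of mesendoderm and endoderm and were at 12.2 normalized counts or fewer in every library of the first and second date, so these log2 differences rest on few reads. Gsc was at 4.26, 6.66 and 41.8 in R1 and at 6.08, 3.54 and 23.8 in HN, so that its third-date libraries stood above all others. Foxa2 is also one of the 6 primitive endoderm markers that were higher on that date. Inhbb ran from -0.837 to -0.103 with 1 library left out (the latter without the HN library of the third date), Mixl1 from 0.764 to 2.56 (without the R1 and the HN library of the first date) and Foxa2 from 0.768 to 2.27 (without the R1 and the HN library of the third date), and each was lost in some of these fits. Targets of the pathway moved in both directions: against the mean of the first and second date, Nodal and Eomes were lower on the third date, and Lefty2 and Gsc were higher, though Lefty2 was lower than on the first date alone.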

How the data were processed

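RNA was sequenced from 6 libraries, 3 of R1 and 3 of HN mESCs (TruSeq RNA v2, paired-end). The deposited table holds 1 signal per gene and library, a read count scaled for depth. To make it, the authors used bcl2fastq, STAR (mm10/GRCm38), Picard for removal of PCR duplicates, HTSeq for counts over exons and the size factors of DESeq2. Versions, the gene annotation and the strand setting are not given in the sources used here. Columns of per-sample values that were not used numbered 0, and 27 rows in which a date stands in place of the symbol are named nowhere.

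Divided by what 1 read is worth in its library, 100% of the values came out whole (tolerance 0.01 read), so reads were recovered for depth (1640391 to 3866717 per library) and for the count tests. Reads without molecular identifiers need not be independent molecules.

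log2 values plus a pseudocount of 1 were compared with limma 3.58.1 (empirical Bayes with a variance trend, R 4.3.3) over 14276 genes with a mean of at least 5. A gene passed at a Benjamini-Hochberg adjusted p under 0.05 over all of them. The lines were compared without a block, as the study names none. The libraries are paired by the collection date in the labels, so the fit with the date as a replicate block is given where it changes a call. Deviations from the line means correlated by 0.25, 0.69 and 0.77 within same-date pairs, against -0.71 to 0.34 between libraries of different dates. Such deviations sum to 0 in each line, which by itself lowers the correlations between dates. The first R1 library correlated more with the second HN library (0.34) than with the first (0.25). Per the study's methods, the libraries of a line are batches collected on different dates, and whether these were independent cultures is not stated. The third date was compared with the mean of the other dates with the line as a covariate. Alternatives were edgeR 4.0.16 (quasi-likelihood) and DESeq2 1.42.0 on the recovered reads, other pseudocounts, filters and scalings, no variance trend and each library left out. The F-test over dates, the line-by-date term, and fits without the third date, with median centring and the block, or with the block and 1 library left out, were chosen after seeing the data. So was the date order of Lefty1 and Lefty2 that was counted over all genes. The scripts were tested on simulated data.

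The genes, lists and tests were chosen with earlier results of these data known. Named are all 10 genes, Htt, those of 39 other pathway genes that passed between the lines (with or without the block) or on the third date (1 is not reported here), Gdf3, Foxh1, Smad4, Inhbb and Cer1, and the 5 genes most like the most variable of the 10 with a mean of at least 50. Mesendoderm marker sums ran from 80.9 to 166 normalized counts in R1 and from 151 to 247 in HN, and overlapped. Neural marker sums ran from 250 to 307 in R1 and from 139.9 to 219 in HN, without overlap, though each of the 5 genes overlapped between the lines. The part of these markers in the line differences was not tested. Gene positions are from GENCODE M21, and lengths per kb are merged exon lengths.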

Additional observations from a re-analysis of the deposited data

Results flagged for a closer look

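In Acvr1b, the lowest of the 4 libraries of the first and second date, the R1 library of the second date at 83.6 normalized counts, stood apart from the other 3 at 123 each. Its gap to the nearest of them was 0.978 of the whole range of the 4 libraries. About 5% of such groups would stand out in this way by chance. Without the block, the log2 difference between the lines in Acvr1b was 0.18 with all libraries and 0.11 without this library.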

How the results depend on the processing

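Without the block, 0 of the 10 genes passed between the lines in every alternative run. With the replicate block 1 passed, with edgeR and the block 2, with the block and the third date left out 2, with median centring and the block 2, and with the block and 1 library left out 0 to 2. Of the other pathway genes, 0 were higher in HN without the block, 0 to 1 with 1 library left out (Fst, without the R1 library of the second date), 5 with the block (also in edgeR, without the third date, or with median centring, each with the block), 3 with DESeq2 and the block, and with the block 3 without a library of the second date, 4 without a library of the first and 5 without a library of the third. Of the 10 genes and the other pathway genes, the block changed no other call between the lines in limma with all libraries. Calls of the stem cell markers are not covered by this. Over all genes, 17 were higher and 18 lower without the block, 780 and 574 with it, and 68 and 44 with DESeq2.

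For the third date, the 5 genes became 3 with quantile normalization, 0 without the variance trend, and 3 to 5 with 1 library left out (3 without the HN library of the second date, with Acvr1b and Tdgf1 lost, and 4 without the HN library of the third date, with Acvr1b lost). For any date difference, the 6 genes became 0 without the variance trend, where 0 of all 14276 tested genes passed. With 1 library left out 5 to 6 passed, where 23.1% to 52.9% of all tested genes passed.

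Of line differences that changed sign, Smad2 was -0.0031 on the log2 scale without the third date, and Smad3 was 0.0116 with edgeR and the block, 0.0055 with median centring and 0.16 without the third date. With 1 library left out, log2 differences between the lines ran from -0.80 to 0.39 for Lefty1, -0.37 to 0.80 for Lefty2, -0.344 to 0.0439 for Tdgf1, 0.034 to 0.412 for Acvr1b (-0.0106 with the block and without a library of the second date), -0.123 to 0.0087 for Acvr2a, -0.0517 to 0.15 for Smad2, -0.0813 to 0.102 for Smad3, -0.56 to 0.25 for Foxh1, -0.0982 to 0.176 for Smad4 (-0.0105 with the block and without a library of the first date) and -0.446 to 0.0201 for Inhbb. Third-date differences that changed sign were those of Lefty1 (-0.0934 with a pseudocount of 10, -0.724 with quantile normalization, -0.0328 with TMM factors) and, with quantile normalization, of Acvr2a (0.0446), Acvr2b (-0.255), Smad2 (0.0659), Nomo1 (0.0297) and Usp9x (0.0123). With 1 library left out they ran from -0.30 to 0.65 for Acvr2b, -0.17 to 0.33 for Smad3 and -0.997 to 0.316 for Fst. The cause was not tested.

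Depth limits Lefty1 and Acvr2b most, which rest on 10 to 59 reads per library. With 3 libraries per line, spread between dates widens the intervals without the block.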
